A study of Mus musculus with 4 samples.

Results

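Matrix metalloproteinases (MMP), ADAM and ADAMTS proteases and the tissue inhibitors of metalloproteinases (TIMP) were examined in gene counts from cultured mouse cortical astrocytes of 2 genotypes, Npas3-/- and wild type (WT). NPAS3 is a transcription factor of the bHLH-PAS family, known from the nervous system. The genes were chosen by name: protein-coding genes whose symbol is Mmp, Timp, Adam or Adamts followed by a digit, with at least 10 counts in total over the 4 samples. Of 53379 genes in the table, 78 had such a name and biotype and 56 met the minimum: 4 Timp, 16 Mmp, 18 Adam and 18 Adamts genes. Of the other 22 genes, 14 had no count in any library. Just under the minimum were Adam33 and Mmp7 with 9 counts each, and just over it Adam30 with 12 counts and Adam2 and Mmp21 with 20 each.

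Both genotypes were of the C57BL/6 strain, with 2 samples each, and no treatment is named. Cortex of newborn (P0) mice was dissociated with papain, the cells were grown in DMEM with fetal bovine serum, flasks were shaken daily for the first week to detach neurons and other cells, and the astrocytes were replated with trypsin and taken at day 14 in vitro. The sources used here do not say how the Npas3-/- allele was made. Whether replicates were different animals or cultures is also not stated, and the spread behind each p-value may thus be technical. In bulk RNA, fewer cells of a type and less RNA per cell cannot be told apart.

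MMPs, ADAMs and ADAMTSs are zinc proteases of the metzincin clan. Secreted MMPs and ADAMTSs cut collagens, laminins and the chondroitin sulphate proteoglycans of the brain matrix, membrane-type MMPs do so at the cell surface, and most catalytic ADAMs shed growth factors, Notch receptors and adhesion molecules from membranes. TIMPs block the active site of MMPs with broad overlap, and TIMP3, which binds to the matrix, also blocks several ADAMs and ADAMTSs. Astrocytes are a known source of these enzymes and inhibitors in injured brain and at the vessel wall.

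The 4 libraries held between 82965565 and 86932708 counts over genes. Npas3 had 2055 and 1386 counts in Npas3-/- replicates 1 and 2, against 5129 and 8739 in WT replicates 1 and 2. Its log2 fold change was -1.82 (SE 0.33; Benjamini-Hochberg adjusted p = 0.0181, edgeR), and these counts cover the whole gene, not the altered part alone. Transcripts in the Npas3-/- libraries were richer in GC, with a count-weighted GC content of 53.2% and 53.6%, against 51.5% and 50.2% in WT. Most fold changes below are therefore also given from a second fit that corrects each library for transcript GC content and length, called the corrected fit. Npas3 had -0.57 in the corrected fit (edgeR adjusted p = 0.154). Real differences that run along GC content or length would be taken out by it too. The 8 astrocyte markers summed to 3431 and 3360 CPM (counts scaled to library size) in Npas3-/-, against 2819 and 3527 CPM in WT. All 8 had counts in every library, with Gfap passing as higher and Aqp4, Slc1a2 and Gja1 as lower in Npas3-/-. Slc1a2 did not pass in the corrected fit (log2 fold change -0.41; edgeR adjusted p = 0.415), while Gfap, Aqp4 and Gja1 did. Of the marker lists of other cells, the 8 microglial genes stayed at or below 10.8 CPM in sum and none passed the test. The 7 oligodendrocyte-lineage genes summed to 1361 and 1690 CPM in Npas3-/-, against 1332 and 1220 CPM in WT. Most of this was Olig1, and 1 of 5 tested was lower and 0 higher. The 6 neuronal genes summed to 198 and 197 CPM in Npas3-/-, against 306 and 161 CPM in WT, with 2 of 4 tested lower and 0 higher. The 6 mural genes summed to 1993 and 2144 CPM in Npas3-/-, against 1818 and 464 CPM in WT, with 1 of 5 tested lower and 0 higher. Most of this was Acta2 and Tagln, in which WT replicate 2 was low and stood apart from WT replicate 1. The lower gene, Rgs5, had 0.386 and 0.312 CPM in Npas3-/-, against 3.82 and 11.5 CPM in WT, and passed in both fits.

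Of the 56 genes, 48 had enough counts to be tested. Among these, 9 rose and 15 fell in Npas3-/- astrocytes at an adjusted p below 0.05 (quasi-likelihood test of edgeR, Benjamini-Hochberg adjustment over all 18838 genes tested). Over all genes tested, 11.6% were called higher and 21.5% lower. The higher genes were the inhibitors Timp1 and Timp4, the proteases Mmp14, Mmp15, Mmp17, Mmp19, Adam15 and Adamts10, and the non-catalytic Adam11. The lower genes included the main sheddases Adam9, Adam10 and Adam17, the gelatinase Mmp2 and the proteoglycan-cutting Adamts1, Adamts5 and Adamts9. The median log2 fold change of the 48 genes was -0.47, beside -0.07 over all genes tested. This median depended on the filter: over the 32 members with at least 5 CPM on average it was 0.17, beside 0.057 over all such genes, and with no filter it was -0.91, beside -0.28 over all genes. In the corrected fit 4 genes were called higher and 4 lower, where 5.71% and 3.08% of all genes were (8.79% in either direction), and the median was -0.050, beside 0.088 over all genes. Both fits called Timp4, Mmp15 and Mmp19 higher and Mmp2, Adam9, Adam12 and Adam19 lower. Calls higher in both fits covered 2.45% of all genes and calls lower in both fits 2.87%. Without Npas3-/- replicate 2 no gene of the table passed edgeR's test (smallest adjusted p = 0.0798), and so none of the 24 calls held. That fit tested 54 of the 56 genes, of which 5 were higher and 14 lower at an unadjusted p below 0.05. Leaving out Npas3-/- replicate 1, WT replicate 1 or WT replicate 2 gave 9, 16 and 12 of the 24 calls again. The 9 were Adam9, Adam10, Adam12, Adam17, Adam22, Adamts5, Adamts6, Adamts9 and Mmp3, and these also passed without either WT sample.

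The catalytic zinc site is what the 3 protease families share and what the non-catalytic members lack. Its core reads HExxHxxGxxH in MMPs and most ADAMs, with 3 zinc-binding histidines and a catalytic glutamate. It was searched in the coding sequence of 1 transcript per gene (GENCODE M21, mm10), also with asparagine or serine in place of the glycine. Of the 52 proteases, 45 held such a site. The 33 bases are shown for the proteases called in both fits and for 5 others chosen after their values were seen: the surface enzyme Mmp14, the sheddases Adam10 and Adam17, and Adamts1 and Adamts5. They show how far the coding letters differ around shared codons. Capitals mark the codons of the histidines, the glutamate and the glycine or asparagine.
Mmp2: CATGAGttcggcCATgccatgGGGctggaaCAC
Mmp14: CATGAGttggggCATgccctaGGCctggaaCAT
Mmp15: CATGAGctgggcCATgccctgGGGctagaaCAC
Mmp19: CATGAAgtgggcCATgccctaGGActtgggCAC
Adam9: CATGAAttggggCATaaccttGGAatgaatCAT
Adam10: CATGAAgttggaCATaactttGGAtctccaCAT
Adam12: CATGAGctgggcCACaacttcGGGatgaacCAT
Adam17: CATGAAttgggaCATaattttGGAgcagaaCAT
Adam19: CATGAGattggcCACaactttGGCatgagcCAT
Adamts1: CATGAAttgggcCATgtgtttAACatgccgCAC
Adamts5: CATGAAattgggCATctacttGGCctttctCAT
In mm10 coordinates on the coding strand these lie at chr8:92839279-92839311 (Mmp2, plus), chr14:54437627-54437659 (Mmp14, plus), chr8:95368585-95368617 (Mmp15, plus) and chr10:128795673-128795705 (Mmp19, plus). The ADAM sites lie at chr8:24990326-24990358 (Adam9, minus), chr7:133961158-133961190 (Adam12, minus), chr12:21336732-21336764 (Adam17, minus) and chr11:46125050-46125082 (Adam19, plus). Those of Adam10 (chr9:70754296-70761585, plus), Adamts1 (chr16:85799191-85799545, minus) and Adamts5 (chr16:85878015-85887826, minus) are each split by an intron.

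Of the 45 proteases with a zinc site, 39 were tested, of which 6 rose and 12 fell. Over all genes tested, 11.6% were called higher and 21.5% lower (5.71% and 3.08% in the corrected fit). The 7 proteases with no match were all ADAMs, among them the neuronal adhesion proteins Adam11, Adam22 and Adam23. Of the 5 of them that were tested, 1 rose and 2 fell. Within the ADAM family, 1 of the 9 tested genes with a site rose and 5 fell, and in the corrected fit 0 rose and 3 fell. Of the 5 tested ADAMs without a site, 1 rose and 0 fell in the corrected fit.

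Among the inhibitors, Timp1 and Timp4 rose, Timp3 fell and Timp2 did not pass the test. Timp1, the inducible inhibitor of most secreted MMPs (mm10 chrX:20870166-20874735), had 78.2 and 106.9 CPM in Npas3-/-, against 47.2 and 55.6 CPM in WT. Both Npas3-/- values lay above both WT values. The log2 fold change was 0.85 (SE 0.24; edgeR adjusted p = 0.0456), and in the corrected fit 0.20 (adjusted p = 0.524). Timp4, an inhibitor with a narrow tissue range that includes brain (mm10 chr6:115241892-115252205), had 21.0 and 19.7 CPM in Npas3-/-, against 9.17 and 7.18 CPM in WT. Both Npas3-/- libraries lay far above both WT libraries. On the log2 scale it changed by 1.32 (SE 0.28; edgeR adjusted p = 0.0248), and 2.38 in the corrected fit (SE 0.27; adjusted p = 0.0246). Of the inhibitors only Timp4 was called in both fits.

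Timp3, the matrix-bound inhibitor that also acts on ADAM17 and the aggrecanases (mm10 chr10:86300372-86349506), had 280.4 and 194 CPM in Npas3-/-, against 472 and 447 CPM in WT. Both Npas3-/- libraries were lower than both WT libraries, with a log2 fold change of -0.95 (SE 0.25; edgeR adjusted p = 0.0387). In the corrected fit the sign turned, with a value of 0.20 (SE 0.18; adjusted p = 0.509). Timp2, which also takes part in the activation of pro-MMP2 with MMP14 (mm10 chr11:118301069-118355740), had 1294 and 1079 CPM in Npas3-/-, against 971 and 832 CPM in WT. The groups did not overlap, but the test was not passed, with a log2 fold change of 0.40 (SE 0.23; edgeR adjusted p = 0.220) and 0.20 in the corrected fit. Timp1, Timp3 and Timp4 each lie within a synapsin gene, Syn1, Syn3 and Syn2, on the opposite strand. Shared exon bases made up 21.3% of the exon length of Timp3 with Syn3 and 1.53% of that of Timp4 with Syn2. Whether the counting used strand is not given in the sources used here, so counts in these bases are uncertain. Syn2 itself had 408 and 687 counts in Npas3-/-, against 2392 and 2270 in WT, and fell (log2 fold change -1.89; edgeR adjusted p = 0.0212) while Timp4 rose. Syn3 had at most 163 counts in any library, a small number beside those of Timp3.

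**Figure D1:**
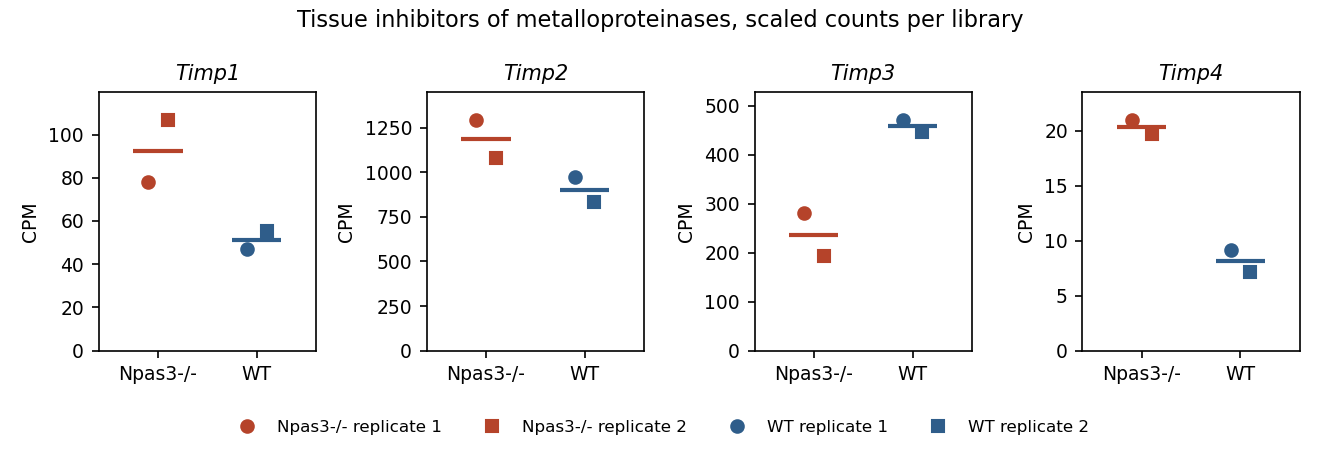
CPM of the 4 Timp genes (y axis, linear from 0) in the 2 Npas3-/- and the 2 WT libraries, with a point per library and a bar at the group mean. Timp1, Timp2 and Timp4 lie higher in both Npas3-/- libraries than in both WT libraries, and Timp3 lower.

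To compare levels between genes, counts were divided by merged exon length and scaled to the same total in each library (TPM). Timp2 was the most abundant inhibitor in every library, at 72.5% and 65.2% of the summed TPM of the 4 inhibitors in Npas3-/- and 68.9% and 64.3% in WT. Timp3 made up 7.51% and 5.62% of that sum in Npas3-/-, against 16.01% and 16.5% in WT. Timp4 made up 0.778% and 0.787% in Npas3-/-, against 0.430% and 0.367% in WT. The summed TPM of the inhibitors was 1274 and 1017 in Npas3-/-, against 1209 and 1160 in WT. These sums overlapped between the genotypes. The summed TPM of the Mmp genes was 619.9 and 558.1 in Npas3-/-, against 469.5 and 437.5 in WT. Those of the Adam genes were 167 and 133 in Npas3-/-, against 453 and 499.8 in WT. Those of the Adamts genes were 152 and 113 in Npas3-/-, against 313 and 243 in WT. The MMP sum was thus higher in both Npas3-/- libraries, and the ADAM and ADAMTS sums were lower in both. None of these sums was corrected for GC content or length. The tested Mmp genes had a median log2 fold change of 0.59, and 0.12 in the corrected fit. The tested Adam genes had -1.51 and, in the corrected fit, -0.29, and the tested Adamts genes -0.76 and -0.44.

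The ratio of summed inhibitor TPM to summed protease TPM was 1.36 and 1.26 in Npas3-/-, against 0.979 and 0.983 in WT, with no overlap. After the correction it was 1.3 and 1.13 in Npas3-/- against 1.09 and 1.22 in WT, and the genotypes overlapped. With 2 samples against 2, a two-sided exact permutation test of such a value cannot go below p = 0.333, which these deposited ratios reach.

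**Figure D2:**
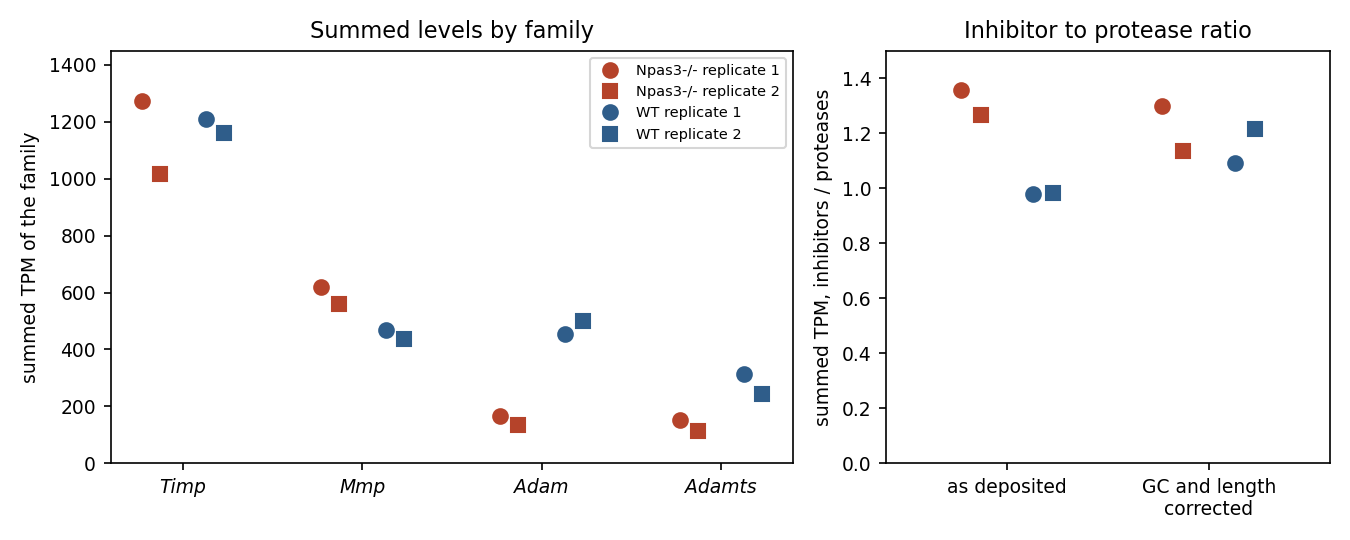
Left, summed TPM of each gene family (y axis) in each library, without the correction. Right, summed TPM of the 4 inhibitors over that of the proteases, as deposited and after the GC and length correction. The deposited ratio lies higher in both Npas3-/- libraries than in both WT libraries, and the corrected ratios overlap.

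Membrane-type MMPs, which are anchored at the cell surface, made up most of the MMP total. Their summed TPM was 455.5 and 422 in Npas3-/-, against 300.5 and 253 in WT. Of the 6 tested, Mmp14, Mmp15 and Mmp17 rose, Mmp16 fell, and Mmp24 and Mmp25 did not pass. Mmp14 (MT1-MMP, a collagenase and the activator of pro-MMP2) had 404 and 433 CPM in Npas3-/-, against 260.4 and 199.9 CPM in WT. Its groups did not overlap, and its log2 fold change was 0.86 (SE 0.22; edgeR adjusted p = 0.0375), with 0.54 in the corrected fit (adjusted p = 0.0902). Mmp15 (MT2-MMP, mm10 chr8:95352268-95375080) had 406 and 436 CPM in Npas3-/-, against 183 and 166 CPM in WT. Replicates of a genotype were close, and the genotypes were far apart. This was a log2 fold change of 1.27 (SE 0.20; edgeR adjusted p = 0.0148), and in the corrected fit 0.99 (SE 0.15; adjusted p = 0.0262). Mmp17, a GPI-anchored MT-MMP, had 130.3 and 143 CPM in Npas3-/-, against 70.7 and 39.0 CPM in WT. The 2 WT libraries differed from each other, and both were below both Npas3-/- libraries. The log2 fold change was 1.32 (SE 0.32; edgeR adjusted p = 0.0329), and 1.35 in the corrected fit (adjusted p = 0.0506). Mmp16 (MT3-MMP), a low transcript, had 6.80 and 4.19 CPM in Npas3-/-, against 12.8 and 18.4 CPM in WT. Its log2 fold change was -1.51 (SE 0.38; edgeR adjusted p = 0.0363), but 0.64 in the corrected fit (adjusted p = 0.164), so that its sign turned.

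The gelatinase Mmp2, which cuts type IV collagen and is activated by Mmp14, fell in both fits. Mmp2 (mm10 chr8:92827291-92853420) had 30.2 and 25.01 CPM in Npas3-/-, against 59.4 and 65.6 CPM in WT. Neither Npas3-/- library reached the lower WT value. This was a log2 fold change of -1.18 (SE 0.22; edgeR adjusted p = 0.0193) and -1.61 in the corrected fit (SE 0.22; adjusted p = 0.0246). Its transcript, with 55.3% GC, was the richest in GC of the 15 genes called lower. Markers of meningeal cells or fibroblasts, which also express Mmp2, summed to 260.3 and 316 CPM in Npas3-/-, against 369 and 346 CPM in WT, with 2 of 5 tested lower and 0 higher. Their part in the Mmp2 result was not tested. The other gelatinase, Mmp9, had 2.04 and 2.69 CPM in Npas3-/-, against 2.18 and 6.93 CPM in WT, and its groups overlapped. Mmp19, a secreted protease of basement membranes (mm10 chr10:128790910-128800824), had 110.4 and 107 CPM in Npas3-/-, against 53.0 and 57.9 CPM in WT. The values of each genotype lay close together, and the groups were well apart. The log2 fold change was 0.97 (SE 0.19; edgeR adjusted p = 0.0203), and 1.41 in the corrected fit (SE 0.15; adjusted p = 0.0246). Mmp19 shares 22.3% of its exon length with Tmem198b on the opposite strand, so its counts are uncertain in those bases. The remaining tested Mmp genes, Mmp11, Mmp23 and Mmp28 besides Mmp9, Mmp24 and Mmp25, had log2 fold changes between -0.95 and 1.03 and none passed in either fit.

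Of the Mmp cluster on mouse chromosome 9, 9 protein-coding genes within chr9:7272514-7699585 of mm10 could be read from the counts. The stromelysin Mmp3 had most of their counts. Mmp1a, which also has a coding transcript in this interval, was not among the 9. Over these 9 genes the libraries had 172 and 128 counts in Npas3-/-, against 762 and 793 in WT. Mmp3 had 2.08 and 1.61 CPM in Npas3-/-, against 8.24 and 7.72 CPM in WT. It fell with a log2 fold change of -2.11 (SE 0.35; edgeR adjusted p = 0.0164), while in the corrected fit the value was -1.28 (SE 0.31; adjusted p = 0.0598). The cluster's other members were too low to test. Mmp13, a collagenase, had 0 and 0 counts in Npas3-/-, against 4 and 40 in WT. Mmp10, also a stromelysin, had 0 and 4 counts in Npas3-/-, against 18 and 8 in WT. Inducible MMP genes are known for AP-1 elements near their starts, and the AP-1-like string TGANTCA stands before the start of all 3. Their RefSeq promoter windows (GRCm38.p6, plus strand, 250 bases before to 50 after the start) are shown because the 3 neighbours share this string. It is in capitals (N is any base), 46 bases before the start in Mmp3, 63 in Mmp10 and 35 in Mmp13.
Mmp3: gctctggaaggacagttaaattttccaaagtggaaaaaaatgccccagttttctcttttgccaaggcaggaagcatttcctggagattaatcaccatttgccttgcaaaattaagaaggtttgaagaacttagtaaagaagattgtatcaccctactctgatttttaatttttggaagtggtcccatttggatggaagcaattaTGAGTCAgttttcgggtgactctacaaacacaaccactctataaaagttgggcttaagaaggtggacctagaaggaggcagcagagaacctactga
Mmp10: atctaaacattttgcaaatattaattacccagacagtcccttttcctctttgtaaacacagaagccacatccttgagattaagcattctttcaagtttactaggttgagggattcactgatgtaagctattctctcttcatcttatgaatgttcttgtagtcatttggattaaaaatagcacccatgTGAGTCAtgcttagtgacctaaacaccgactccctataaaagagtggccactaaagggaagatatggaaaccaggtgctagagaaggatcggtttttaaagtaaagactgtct
Mmp13: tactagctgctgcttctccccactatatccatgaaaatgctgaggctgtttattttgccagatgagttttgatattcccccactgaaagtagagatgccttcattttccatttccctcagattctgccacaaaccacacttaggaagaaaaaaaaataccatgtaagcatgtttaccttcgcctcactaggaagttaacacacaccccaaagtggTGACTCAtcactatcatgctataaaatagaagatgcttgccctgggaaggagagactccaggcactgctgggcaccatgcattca
The windows span chr9:7445572-7445871 (Mmp3), chr9:7502092-7502391 (Mmp10) and chr9:7272264-7272563 (Mmp13). Windows were found for 35 of the 56 genes. TGANTCA, which is its own reverse complement apart from the open base, was in a window of 5 of these 35: Mmp3, Mmp10, Mmp13, Adam19 and Adam1b. It was in 7.81% of all 32851 windows searched. None of the 4 Timp windows held it. GGGCGG on either strand was in a window of 23 of the 35 genes and in 35.7% of all windows. Genes with more than 1 window, Adam19 and Mmp23, were counted once for any match, while the background counts single windows. GC content, with a median of 52.7% over all windows, was not matched either, so these shares are not alike. A match is a string of letters and not a shown binding site.

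**Figure D3:**
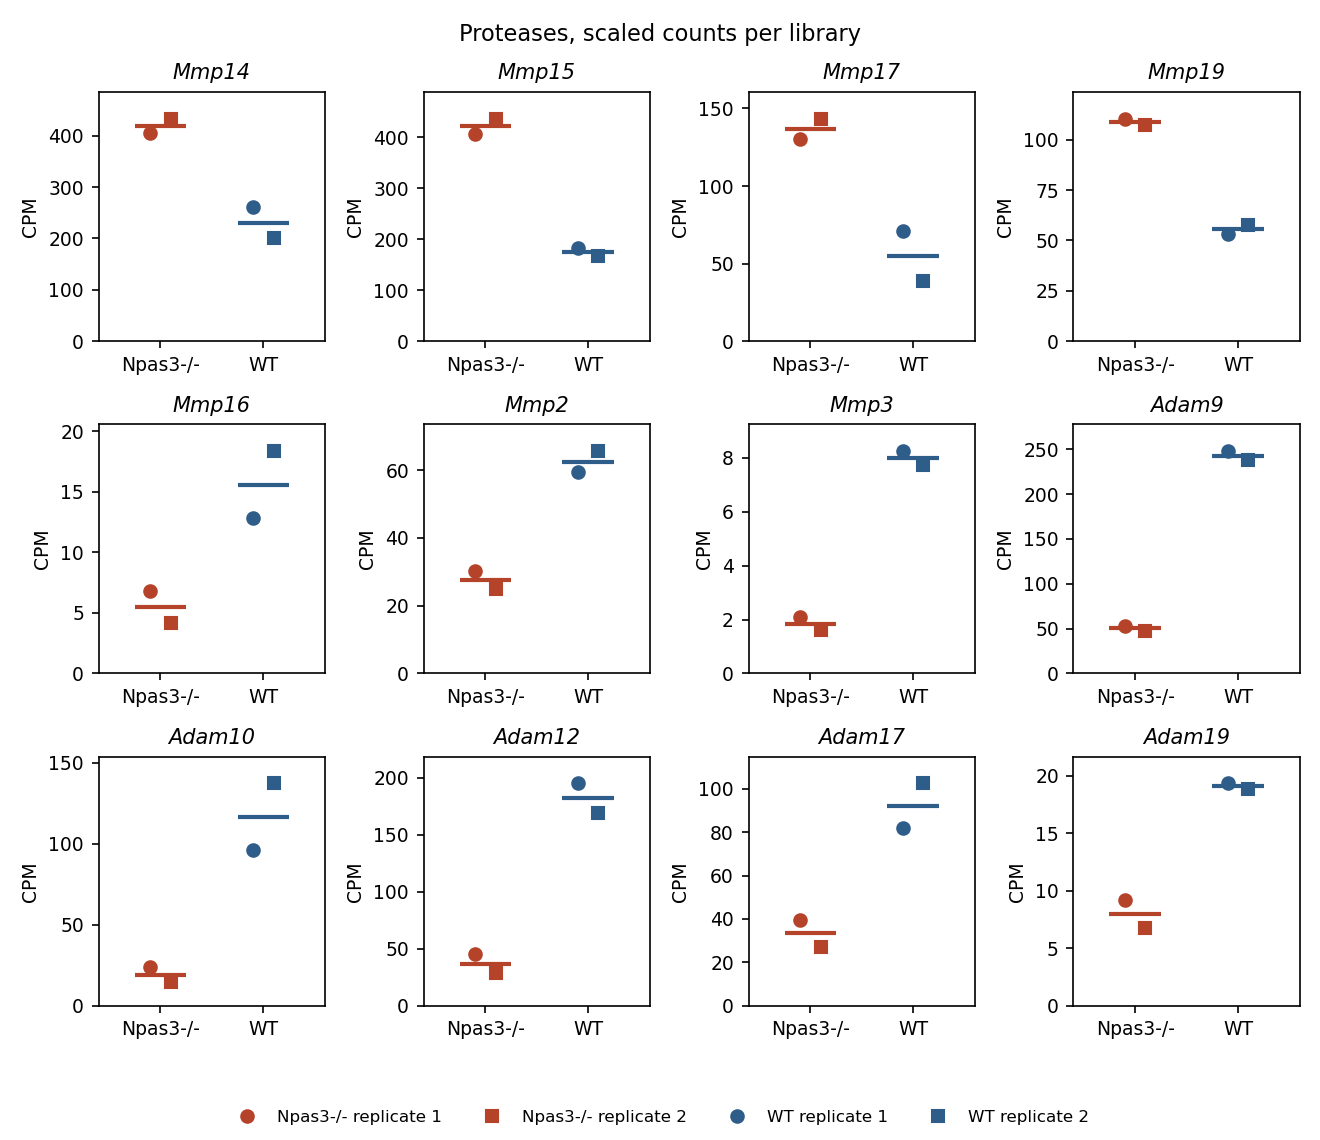
CPM (y axis, linear from 0) of 12 proteases in each library, with a bar at the group mean. Mmp14, Mmp15, Mmp17 and Mmp19 lie higher in both Npas3-/- libraries than in both WT libraries, and the other 8 genes lie lower.

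The ADAM family, whose catalytic members shed membrane proteins, was lower in uncorrected sum and in most of its abundant members. The summed TPM of the 7 catalytic ADAMs on the list (Adam8, Adam9, Adam10, Adam12, Adam15, Adam17 and Adam19) was 145 and 116 in Npas3-/-, against 424 and 462 in WT. Of these 7, 5 fell and 1 rose, where 21.5% and 11.6% of all genes tested did. In the corrected fit 3 fell and 0 rose, where 3.08% and 5.71% of all genes did. Adam9, a sheddase with many substrates (mm10 chr8:24949611-25016927), had 53.3 and 47.8 CPM in Npas3-/-, against 248 and 238 CPM in WT. The mean in Npas3-/- was 0.208 times that in WT by the fitted fold change. This was a log2 fold change of -2.26 (SE 0.19; edgeR adjusted p = 0.0130), and -1.17 in the corrected fit (SE 0.16; adjusted p = 0.0246). Adam9 was the ADAM of highest mean TPM in WT, whereas in Npas3-/- the highest was Adam15, at 59.4 ± 0.442 TPM beside 31.9 ± 5.77 TPM for Adam9 (SD, n = 2 samples).

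Adam10, the main sheddase of Notch receptors, N-cadherin and the amyloid precursor protein, had 23.8 and 14.6 CPM in Npas3-/-, against 95.9 and 137 CPM in WT. Both genotypes were spread, but the higher Npas3-/- value was well under the lower WT value. The log2 fold change was -2.60 (SE 0.34; edgeR adjusted p = 0.0130), and in the corrected fit it shrank to -0.51 (SE 0.20; adjusted p = 0.150). Adam10 had the lowest transcript GC content of all 15 genes called lower, 42.1%. Adam17 (TACE), the sheddase of TNF and of several EGF receptor ligands, had 39.5 and 27.2 CPM in Npas3-/-, against 82.02 and 102 CPM in WT. It fell with a log2 fold change of -1.47 (SE 0.27; edgeR adjusted p = 0.0188), and had 0.05 in the corrected fit (adjusted p = 0.867). The calls of these sheddases therefore differed between the fits: Adam9 passed in both, Adam10 and Adam17 only without the correction.

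Adam12 and Adam19, related meltrins that shed growth factor precursors, fell in both fits. Adam12 (mm10 chr7:133883199-134232146) had 45.5 and 28.6 CPM in Npas3-/-, against 195 and 169 CPM in WT. On the log2 scale it changed by -2.29 (SE 0.29; edgeR adjusted p = 0.0130), and -1.53 in the corrected fit (SE 0.21; adjusted p = 0.0246). Adam19 (mm10 chr11:46055992-46147343) had 9.21 and 6.74 CPM in Npas3-/-, against 19.3 and 18.9 CPM in WT. Its groups did not overlap, and the log2 fold change was -1.26 (SE 0.29; edgeR adjusted p = 0.0297), with -1.02 in the corrected fit (SE 0.22; adjusted p = 0.0473). Antisense genes cover 8.25% and 6.75% of its exon length. Adam15, which binds integrins and has a zinc site, had 132 and 151 CPM in Npas3-/-, against 82.8 and 75.5 CPM in WT. It rose with a log2 fold change of 0.84 (SE 0.19; edgeR adjusted p = 0.0293), and had 0.19 in the corrected fit (adjusted p = 0.428). It shares 20.6% of its exon length with an antisense gene. Adam8, at 7.47 and 7.13 CPM in Npas3-/- and 5.42 and 6.19 CPM in WT, did not pass.

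The brain ADAMs without protease activity, which act in adhesion and as partners of the secreted LGI proteins, went different ways. Adam11 had 19.7 and 19.2 CPM in Npas3-/-, against 8.46 and 8.54 CPM in WT. The values of each genotype were nearly equal, and the log2 fold change was 1.19 (SE 0.25; edgeR adjusted p = 0.0252), with 0.90 in the corrected fit (adjusted p = 0.0576). Adam22 had 20.6 and 13.9 CPM in Npas3-/-, against 55.3 and 80.4 CPM in WT. It fell with a log2 fold change of -1.97 (SE 0.32; edgeR adjusted p = 0.0157), and had 0.05 in the corrected fit (adjusted p = 0.857). Adam23 had 49.7 and 46.1 CPM in Npas3-/-, against 41.2 and 37.5 CPM in WT. Its groups were close, with a log2 fold change of 0.28 (edgeR adjusted p = 0.318), but the corrected fit called it higher at 1.58 (SE 0.20; adjusted p = 0.0246). It was the only gene of the 48 that passed in the corrected fit alone.

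The other ADAMs are known mainly from testis and sperm, and were at or near the floor of detection. Adam5 was the only one to pass. It had 9 and 23 counts in Npas3-/-, against 103 and 152 in WT, a log2 fold change of -2.77 (SE 0.74; edgeR adjusted p = 0.0411), and -1.08 in the corrected fit (adjusted p = 0.360). Adam1a, Adam1b and Adam32 were tested and did not pass, and Adam2, Adam4, Adam21 and Adam30 were too low to test. Adam1a shares 63.7% of its exon length with the annotated gene Gm42878 on the same strand, so its counts are uncertain.

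In the ADAMTS family, 4 of 17 tested genes fell, 1 rose and none passed in the corrected fit. The shares over all genes tested were 21.5% lower and 11.6% higher. The 7 aggrecanases and versicanases, which cut the chondroitin sulphate proteoglycans of the brain matrix, summed to 120 and 85.7 TPM in Npas3-/-, against 265 and 204 TPM in WT. Adamts1 made up most of this sum, with 169 and 139 CPM in Npas3-/-, against 342 and 246 CPM in WT. The groups did not overlap, with a log2 fold change of -0.93 (SE 0.25; edgeR adjusted p = 0.0405), and -0.40 in the corrected fit (adjusted p = 0.279). Adamts5, a main aggrecanase in mouse cartilage, had 6.34 and 6.45 CPM in Npas3-/-, against 22.6 and 25.4 CPM in WT. The groups were far apart, with a log2 fold change of -1.91 (SE 0.26; edgeR adjusted p = 0.0133), but the corrected value was 0.38 (SE 0.33; adjusted p = 0.486), of the other sign. Adamts9, which cuts versican and aggrecan, had 38.4 and 24.5 CPM in Npas3-/-, against 77.4 and 72.3 CPM in WT. Its log2 fold change was -1.25 (SE 0.28; edgeR adjusted p = 0.0268), and -0.44 in the corrected fit (adjusted p = 0.182). Adamts4, the other well-counted aggrecanase, had 34.7 and 31.5 CPM in Npas3-/-, against 31.6 and 19.8 CPM in WT. Its lower Npas3-/- value and its higher WT value were nearly equal, and it did not pass (log2 fold change 0.36; edgeR adjusted p = 0.373). Adamts8, Adamts15 and Adamts20 did not pass either.

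Adamts6, a relative of Adamts10, had the lowest log2 fold change of the 24 called genes. It had 0.652 and 0.623 CPM in Npas3-/-, against 4.14 and 6.32 CPM in WT, with a log2 fold change of -3.03 (SE 0.44; edgeR adjusted p = 0.0137) and -0.88 in the corrected fit (adjusted p = 0.162). Adamts10, which binds fibrillin microfibrils, went the other way. It had 23.4 and 28.4 CPM in Npas3-/-, against 13.5 and 12.02 CPM in WT, a log2 fold change of 1.02 (SE 0.26; edgeR adjusted p = 0.0353) and 0.58 in the corrected fit (adjusted p = 0.113). The procollagen N-proteinases Adamts2, Adamts3 and Adamts14, which trim fibrillar collagens, did not pass. Adamts14, the most abundant of them, had 30.2 and 27.4 CPM in Npas3-/-, against 47.0 and 27.1 CPM in WT, and WT replicate 1 alone was high. The remaining tested genes, Adamts7, Adamts12, Adamts13, Adamts17 and Adamts18, did not pass.

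Of the 56 genes, 6 (10.7%) had no count in either Npas3-/- library, and 0 had none in both WT libraries. Of all 22123 genes with at least 10 counts in total, 6.56% had none in Npas3-/- and 1.32% none in WT. The 6 passed the minimum through WT alone, so their direction was fixed by it. Against a floor of 3 counts per Npas3-/- library, Mmp13 was at least 6.28-fold lower, Adamts16 at least 3.61-fold, Adamts13 at least 3.50-fold, Adam4 at least 3.17-fold and Adam30 at least 1.74-fold. These bounds rest on the WT libraries: without WT replicate 2 that of Mmp13 was 1.2-fold, of Adamts16 2.4-fold, of Adam4 1.8-fold and of Adam30 1.2-fold, while that of Adamts13 was 3.6-fold. Without WT replicate 1 the bound of Mmp13 was 11.4-fold. Mmp21 had 20 counts in WT replicate 2 and 0 in the 3 other libraries. The floor covers counting error in the Npas3-/- libraries only. The few WT counts enter as observed, so the bounds do not cover their counting error. Adamts13 was the only one of the 6 with enough counts to be tested, with 12 counts in each WT library, and it did not pass (edgeR adjusted p = 0.0578).

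**Figure D4:**
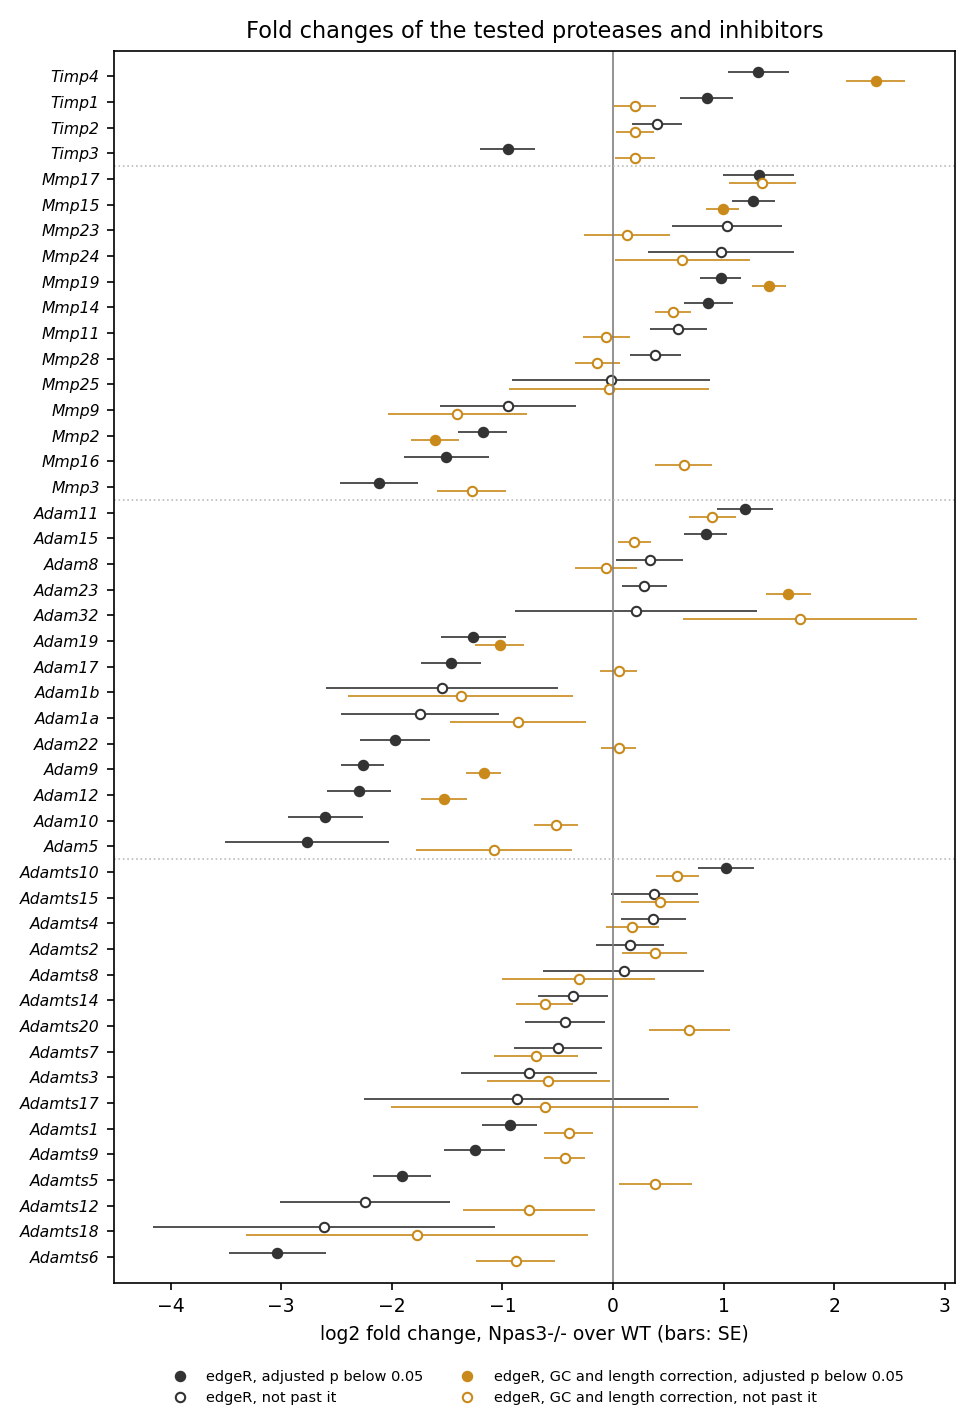
Log2 fold changes, Npas3-/- over WT (x axis), of 47 of the 48 tested genes, by family, from edgeR without and with the GC and length correction. Bars show the SE and filled points an adjusted p below 0.05. Adamts13, at 0 in both Npas3-/- libraries, is left out. Timp4, Mmp15, Mmp19, Mmp2, Adam9, Adam12 and Adam19 have both points filled.

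The genotypes did not overlap in CPM for 37 of the 48 tested genes, 17 higher and 20 lower in Npas3-/-. Over all genes tested, 35.7% were higher and 40.1% lower without overlap (75.8% in all), so these shares stood near the background. The fold changes of the 48 genes followed transcript GC content, with a Spearman's rho of 0.62 across genes that share the same 4 libraries, and a rho of 0.074 after the correction. The 9 genes called higher had transcripts with 47.7% to 60.1% GC (median 55.9%), and the 15 called lower 42.1% to 55.3% (median 45.9%). Timp4 (47.7% GC) and Mmp19 (49.0% GC) rose with transcripts poorer in GC than those of the other genes called higher, and both had larger log2 fold changes in the corrected fit. Mmp2 and Adam19 (53.1% GC) fell with transcripts richer in GC than those of the other genes called lower.

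**Figure D5:**
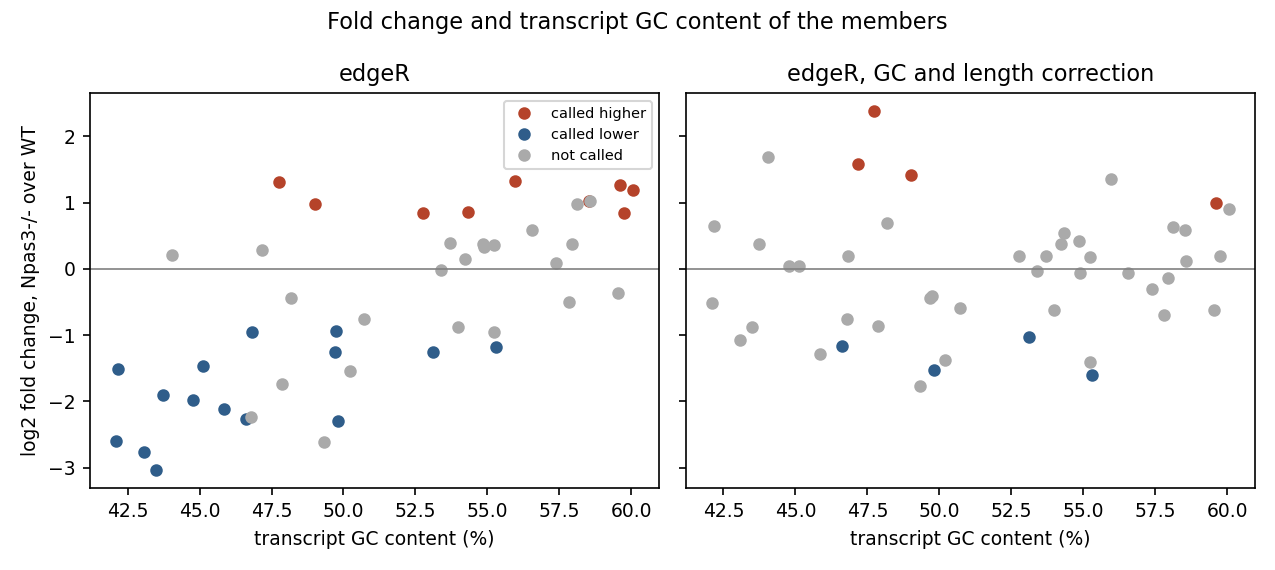
Log2 fold change, Npas3-/- over WT (y axis), against transcript GC content in percent (x axis) for 47 of the 48 tested genes, left as fitted and right with the GC and length correction. Adamts13 is left out. On the left all called genes under 47% GC are lower. On the right the calls lie on both sides of 0, from 46.6% GC (Adam9) to 59.6% GC (Mmp15), with none at lower GC content.

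Genes that act with these proteases were read from 4 further lists. Their counts of calls stand beside 11.6% higher and 21.5% lower over all genes tested (5.71% and 3.08% in the corrected fit). Of 17 activators and partners, 16 were tested, and 5 rose and 0 fell: Bsg, Rhbdf1, Tspan15, Tspan17 and Tspan33. In the corrected fit only Tspan15 passed, and Tspan17 and Tspan33 had log2 fold changes of 0.19 and 0.07. Bsg (basigin or EMMPRIN, an inducer of MMPs), the most abundant, had 821 and 984 CPM in Npas3-/-, against 495 and 420.4 CPM in WT. On the log2 scale it changed by 0.98 (SE 0.22; edgeR adjusted p = 0.0289), and 0.09 in the corrected fit (adjusted p = 0.740). Tspan15, a tetraspanin that escorts ADAM10 to the surface, had 58.8 and 77.0 CPM in Npas3-/-, against 35.5 and 24.2 CPM in WT. It rose in both fits, with log2 fold changes of 1.19 (SE 0.28; edgeR adjusted p = 0.0315) and 1.27 in the corrected fit (SE 0.27; adjusted p = 0.0457). Adam10 itself was called lower without the correction, but did not pass in the corrected fit (log2 fold change -0.51, edgeR adjusted p = 0.150). Rhbdf1 (iRhom1), a cofactor of ADAM17, had 178 and 216 CPM in Npas3-/-, against 86.1 and 84.4 CPM in WT, a log2 fold change of 1.21 (edgeR adjusted p = 0.0163) and 0.54 in the corrected fit (adjusted p = 0.0857).

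Of 14 other inhibitors and clearance proteins, 13 were tested, 0 rose and 2 fell. These were Reck, a membrane-anchored MMP inhibitor, and Adamtsl3, an ADAMTS-like matrix protein without a protease domain. In the corrected fit none of this list passed. Reck had 3.17 and 2.73 CPM in Npas3-/-, against 8.15 and 8.51 CPM in WT, a log2 fold change of -1.50 (SE 0.32; edgeR adjusted p = 0.0256) and -0.75 in the corrected fit (adjusted p = 0.130). The protease scavenger A2m, the most abundant of this list per length, had 585 and 442 CPM in Npas3-/-, against 631 and 839 CPM in WT, and did not pass (edgeR adjusted p = 0.174).

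Of 16 matrix substrates, all tested, 3 rose (Bcan, Col4a2 and Agrn) and 3 fell (Vcan, Nid1 and Thbs1). In the corrected fit only Agrn and Nid1 passed. Bcan had a log2 fold change of 0.93, and 0.28 in the corrected fit, and Vcan -2.71 and -0.37. Agrn (agrin, a heparan sulphate proteoglycan) had 1119 and 1059.9 CPM in Npas3-/-, against 597 and 614 CPM in WT. It was higher in both fits, with log2 fold changes of 0.85 (SE 0.20; edgeR adjusted p = 0.0314) and 0.86 in the corrected fit (adjusted p = 0.0341). Nid1 (nidogen, a basement membrane linker) had 28.2 and 16.1 CPM in Npas3-/-, against 77.8 and 65.4 CPM in WT. It was lower in both fits, with -1.69 (SE 0.33; edgeR adjusted p = 0.0210) and -1.15 in the corrected fit (adjusted p = 0.0454). Ncan (neurocan), the most abundant substrate per length, had 1908 and 1492 CPM in Npas3-/-, against 1591 and 1131 CPM in WT. Its groups overlapped and it did not pass (log2 fold change 0.32; edgeR adjusted p = 0.396).

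Of 20 membrane proteins shed by ADAMs, all tested, 2 rose (Cx3cl1 and Tnfrsf1a) and 5 fell (Ereg, Btc, Nrg1, Cdh2 and Jag1). None of the 7 passed in the corrected fit, where App, the amyloid precursor gene, was called higher instead. Nrg1 had a log2 fold change of -1.32 but 0.80 in the corrected fit, so that its sign turned. Jag1 had -0.86 and, in the corrected fit, 0.0020. App had 809 and 766 CPM in Npas3-/-, against 673 and 683 CPM in WT, a log2 fold change of 0.22 (edgeR adjusted p = 0.426) and 1.89 in the corrected fit (adjusted p = 0.0246). Prnp, the prion protein gene and the most abundant of the list per length, had 745 and 759 CPM in Npas3-/-, against 635 and 545 CPM in WT, and did not pass (edgeR adjusted p = 0.233).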

How the data were processed

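For each of the 4 libraries the authors deposited raw counts, 1 value per Ensembl gene. The submitters' processing notes name Trimmomatic 0.3.8, HISAT2 2.1.0, featureCounts and mm10. No version of featureCounts, annotation release, strand option or rule for shared reads is given in the sources used here, and 15 of the 56 genes share exon bases with another gene. Symbols, exon lengths and coding sequence came from GENCODE M21 (53274 of 53379 identifiers matched), and promoter windows from RefSeq. The genes and lists were chosen with earlier results of these data known.

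Genotypes were compared with the quasi-likelihood test of edgeR 4.0.16 in R 4.3.3, with TMM normalization, filterByExpr at a minimum count of 10, no covariate, 2 residual degrees of freedom and Benjamini-Hochberg adjustment over 18838 genes at a threshold of 0.05. CPM are over TMM-scaled library sizes and were used between genotypes. TPM over merged exon length were used between genes. For the corrected fit, natural splines (6 degrees of freedom each) of transcript GC content and log2 length were fitted in every library and used as an offset. Genes named were all Timp members, every member called in either fit, the 5 Mmp, Adam and Adamts members of highest mean TPM in each family, those next to the 10-count minimum, and in each further list those called in both fits and the most abundant one. Others named were chosen after their values were seen. Alternatives were DESeq2 1.42.0 and its size factors, limma-voom (limma 3.58.1), no filter, a filter of 5 CPM, a replicate block and leaving out each sample. The fits were also run on simulated data, in which the changed genes were drawn regardless of GC content. Those runs cannot tell whether the correction takes out bias or real differences in these libraries.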

Additional observations from a re-analysis of the deposited data

How the results depend on the processing

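With DESeq2 size factors (which shift the median by 0.0144 log2), limma-voom, DESeq2 and a filter of 5 CPM on average, the counts of 9 genes higher and 15 lower stayed within 1.5 times, and the 24 calls were all made again except 2 genes that the 5 CPM filter removed. Without a filter on low counts 5 of 56 were higher and 11 lower. The median log2 fold change of the genes tested changed sign with the 5 CPM filter (0.17, 32 genes) and was -0.91 with no filter. With the GC and length correction 4 were higher and 4 lower. Without each sample in turn the counts were 0 to 5 higher and 0 to 14 lower, and with the correction as well 0 to 5 higher and 0 to 4 lower. Fits with 1 sample left out assume that the lone sample varies like the other group. The cause of these differences was not tested.

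Some genes named by the rule given above turned sign under the correction, and under the correction with a replicate block. These were A2m (0.10 and 0.11), Adam17 (0.051 and 0.044), Adam22 (0.051 and 0.051), Adamts5 (0.38 and 0.38), Mmp16 (0.64 and 0.64) and Timp3 (0.20 and 0.20). Other genes also turned in the corrected fit, among them Nrg1 (0.80), Jag1 (0.0020), Adamts20 (0.69), Adam8 (-0.065), Mmp11 (-0.062) and Mmp28 (-0.14). With 1 sample left out as well, the turned values were 0.033, 0.23 and 0.30 for A2m; 0.036, 0.065 and 0.19 for Adam17. They were 0.026, 0.027, 0.055 and 0.057 for Adam22; 0.0060, 0.099, 0.64 and 0.70 for Adamts5. They were 0.44, 0.48, 0.77 and 0.81 for Mmp16; 0.076, 0.096, 0.32 and 0.35 for Timp3. Uncorrected, Adamts14 ran between -0.72 and 0.067 with 1 sample left out, turning without WT replicate 1, and Adamts4 had -0.046 in the corrected fit without WT replicate 2.

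The replicate numbers share only a number: deviations of same-numbered samples correlated at -0.156. With a replicate block 1 gene was higher and 8 lower, and with the correction too 5 were higher and 3 lower. A crossed block, added after the data were seen, gave 9 higher and 17 lower. At these depths 8 of the 56 genes were too low to test.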
